A study of Mus musculus with 4 samples.

Results

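The solute carrier (Slc) genes encode membrane proteins that move nutrients, ions, metals, vitamins and metabolites across the cell surface and across the membranes of mitochondria, lysosomes and the Golgi. Members were the genes of the deposited H3K9ac table whose symbol begins with Slc and a number, with Slc4a1, Slc2a1, Slc25a21 and Slc43a1 left out. This gave 119 of the 9615 genes in the table, and 117 of them are transporter genes of 41 subfamilies. The other 2, Slc7a6os and Slc4a1ap, match the symbol pattern but encode no transporter.

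H3K9ac, acetylation of histone H3 at lysine 9 and a mark of active promoters and enhancers, was measured by chromatin immunoprecipitation and sequencing in leukaemic bone marrow cells of mice. The Cre-negative sample (WT in the submitters' names) came from mice of the genotype Gfi1b(fl/fl), Nup98(tg), MxCre(wt), and the Cre-positive sample (tg) from Gfi1b(fl/fl), Nup98(tg), MxCre(tg). Both carry floxed alleles of Gfi1b, the gene of a transcriptional repressor of blood cell differentiation, and the NUP98/HOXD13 leukaemia transgene, so that WT is no healthy marrow. Mx-Cre is a Cre recombinase under an interferon-inducible promoter that is active in many tissues. The labels do not give the age of the mice, how Cre was induced or how many animals a library holds. Each genotype has 1 H3K9ac library, so that "higher" and "lower" describe these 2 libraries, without a replicate check or a test between genotypes.

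A cell takes up glucose through Slc2 proteins and moves lactate through Slc16 proteins, while amino acids enter through several families, among them Slc1, Slc6, Slc7 and Slc38. Zinc is moved into the cytosol by Slc39 and out of it by Slc30 proteins, and the Slc25 proteins carry metabolites across the inner mitochondrial membrane. Developing red cells depend on some of these genes in particular, since Slc11a2 brings iron out of endosomes and Slc25a38 brings glycine into mitochondria for the first step of haem synthesis.

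The deposited values are log2 of reads scaled to 1000000, averaged over the probes of a gene. The totals behind the scaling, worked out from the spacing of the deposited values, were 309649 WT and 163712 tg reads. They need not be the sequencing depth, which is not given. Whole reads could be recovered for 118 members, with a median of 25 WT and 14 tg reads. In the same tg library all 12 erythroid markers with a row were at least 2-fold higher (83 WT and 438 tg reads, with Epor, Rhag and Alas2 at 0 in WT and none at 0 in tg), and of 9 neutrophil and monocyte markers, which together had 709 and 61 reads with none at 0, 8 were at least 2-fold lower and 1, Csf1r, was higher. Of 9 pan-leukocyte and progenitor markers, which together had 500 and 122 reads, 6 were at least 2-fold lower and 1, Spn, was higher (10 and 12 reads). Cd34 was at 0 in tg. The B, T and NK cell list had 4 genes with a row (62 and 46 reads, none at 0) and the marrow stroma and endothelium list 1 (Pecam1, 19 and 1 reads). The part that cell composition plays in any difference given here was not tested, and fewer marked cells and less acetylation per cell cannot be told apart. The Y-linked gene Uty had 28 WT and 0 tg reads, so that Y-linked signal also differs between the libraries.

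H3K9ac was higher in tg at more Slc genes than it was lower. By the deposited log2 values, 28 of the 119 members (23.5%) were at least 2-fold higher in tg, where 16.5% of all genes were, and 14 (11.8%) were at least 2-fold lower, where 15.8% of all genes were. The median log2 ratio was 0.20 over the members and 0.045 over all genes, and the members ranged from -3.04 to 4.77. Both ends of this range came from genes whose 0 reads in WT or in tg were entered as 0.9 of a read. By reads summed over probes, 23 of 118 members were 2-fold higher (14.8% of all genes) and 15 were lower (15.4%). The 95% counting interval of the ratio lay above 1 for 22 of 118 members (12.8% of all genes) and below 1 for 10 (12.7%).

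The share of higher members was larger among weakly covered genes and genes with several probes, as it was over all genes. At or above the median level of all genes (62.1 scaled reads), 8 of 63 members were higher, against 10.2% of all genes, and 5 were lower, against 10.8%; their median log2 ratio was -0.08. Below that level 20 of 56 were higher, against 22.8%, and 9 were lower, against 20.9%. Of the 36 members with 2 or more probes, 14 were higher, against 23.9% of such genes, and 3 were lower, against 15.1%. Of the 83 with 1 probe, 14 were higher and 11 lower, against 14.3% and 16.1%. Just inside the 2-fold rule were Slc16a6 (log2 ratio 0.98), Slc39a10 (-0.997) and Slc37a1 (-0.998), and just outside it Slc35e2 (-1.06) and Slc25a45 (-1.11).

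**Figure D1:**
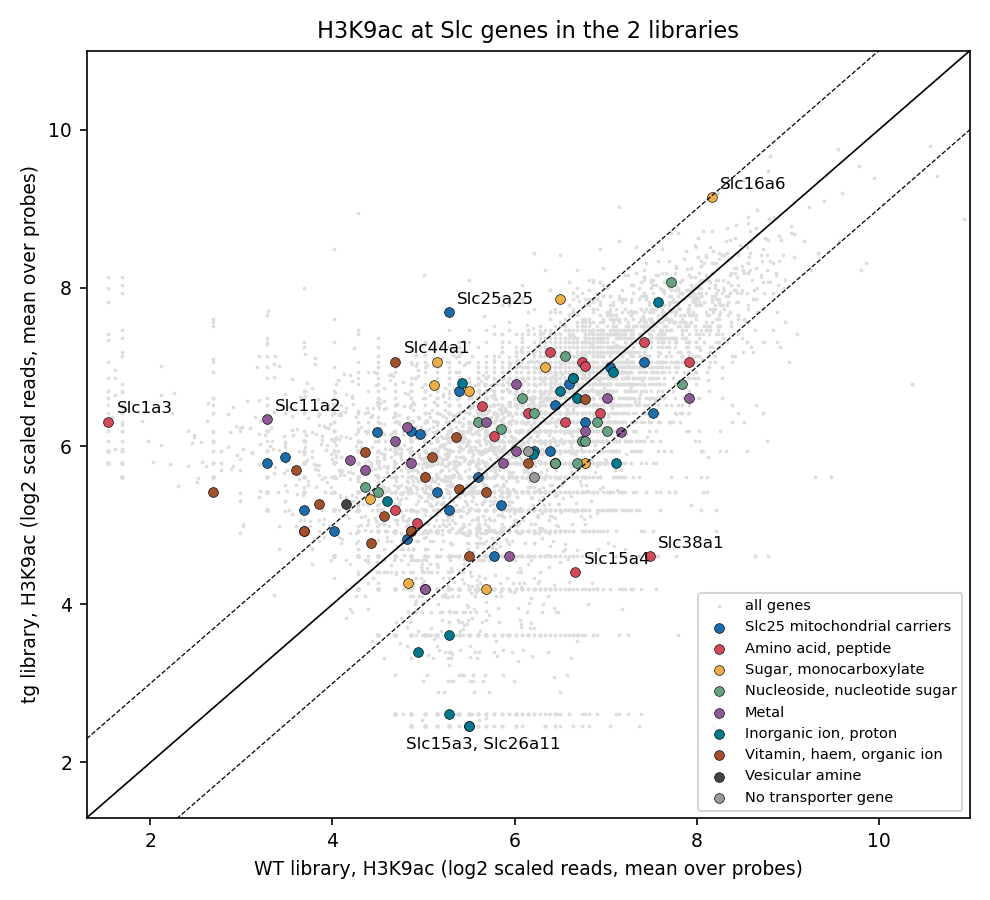
H3K9ac in the WT library (horizontal axis) and in the tg library (vertical axis), both in log2 scaled reads averaged over probes, for all 9615 genes (grey points) and the 119 Slc genes (coloured by role). The solid line marks equality and the dashed lines a 2-fold difference: 28 members lie at or above the upper line and 14 at or below the lower one, with Slc1a3 at the left edge on 0 reads in WT and Slc15a3 and Slc26a11 at the bottom on 0 reads in tg.

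The deposited table holds no probe positions, so that sequence could be looked at only in the RefSeq windows of GRCm38.p6, which run from 250 bases before to 50 bases after a gene's start. A window was found for 89 of the 119 members, the first listed being used where a gene had several. Their median GC content was 63.3%, with 23 CpG dinucleotides, against 61.3% and 22 over the 6657 genes of the table with a window. The E-box CACGTG, which reads the same on both strands, was found in 13 member windows (14.6%), in 10.5% of the windows of the table's genes and in 7.24% of all 27025 windows. GATA-type letters (AGATAA or TGATAA, on either strand) were found in 9 (10.1%), against 9.55% and 19.0%. TGACTCA or TGAGTCA, on either strand, was found in 2 (2.25%), against 3.15% and 5.17%. Of the 22 windows of 2-fold higher members 5 held the E-box and 1 the GATA-type letters, and of the 7 windows of 2-fold lower members 2 and 0 did. Among the 60 windows of members within 2-fold, 6 and 8 did. Over the table's genes, the E-box was in 9.55% of the windows of 2-fold higher genes and 10.4% of those of 2-fold lower genes. The shares for the GATA-type letters were 10.6% and 12.0%. A match is a description of the letters and not a binding site.

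Of the 13 members past 2-fold at or above the median level, 9 had a window and 3 of these held an E-box or GATA-type letters. They are shown, 5′ to 3′ on the gene's strand, because they place the searched letters at the start of well covered genes that differed in either direction. Capitals mark the searched letters. Slc37a3 (chr6:39377658-39377957, minus strand, H3K9ac higher in tg) and Slc30a5 (chr13:100833378-100833677, minus strand, lower in tg) hold 1 E-box each. Slc16a1 (chr3:104638414-104638713, plus strand, higher in tg) holds 1 TGATAA and 1 E-box.
Slc37a3: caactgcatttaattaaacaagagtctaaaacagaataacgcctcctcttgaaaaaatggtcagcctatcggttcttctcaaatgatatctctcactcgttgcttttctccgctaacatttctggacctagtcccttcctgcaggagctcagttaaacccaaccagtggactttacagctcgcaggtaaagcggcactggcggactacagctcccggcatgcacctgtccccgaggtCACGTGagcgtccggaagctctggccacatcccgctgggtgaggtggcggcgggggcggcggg
Slc16a1: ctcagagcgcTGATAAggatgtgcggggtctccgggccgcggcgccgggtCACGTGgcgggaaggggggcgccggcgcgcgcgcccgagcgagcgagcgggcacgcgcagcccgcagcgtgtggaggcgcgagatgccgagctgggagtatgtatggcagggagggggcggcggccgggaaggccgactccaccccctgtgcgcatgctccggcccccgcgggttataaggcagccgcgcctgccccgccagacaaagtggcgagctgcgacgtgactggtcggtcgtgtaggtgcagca
Slc30a5: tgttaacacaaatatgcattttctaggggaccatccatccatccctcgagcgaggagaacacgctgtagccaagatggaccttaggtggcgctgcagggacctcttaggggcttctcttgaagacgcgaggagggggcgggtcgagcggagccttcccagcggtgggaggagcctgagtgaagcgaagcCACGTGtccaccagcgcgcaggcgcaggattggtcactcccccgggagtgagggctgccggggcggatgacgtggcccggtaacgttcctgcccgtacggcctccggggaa

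Sugar and monocarboxylate transporter genes had the highest median of the role groups with more than 1 gene. Of 10 members, 4 (40%) were at least 2-fold higher and 1 (10%) was lower, against 16.5% and 15.8% of all genes. The median log2 ratio of the group was 0.95. The count was also 4 higher and 1 lower by summed reads, and 5 counting intervals lay above 1. Slc16a1 encodes MCT1, a proton-coupled carrier of lactate and pyruvate. It had 28 WT and 38 tg reads, a 2.57-fold higher scaled level (95% counting interval 1.53 to 4.34). Slc37a3, a gene of the sugar phosphate exchanger family, had 11 and 22 reads (3.78-fold, 1.76 to 8.64). The tg library, whose scaling total was the smaller, thus held more reads in absolute number. The related gene Slc37a1 went the other way, with 34 and 9 reads and an interval of the ratio that includes 1 (0.501, 0.211 to 1.07).

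Slc2a3, the gene of the glucose transporter GLUT3, had probes with 4 and 29 reads in WT and 16 and 20 in tg. The weaker WT probe was the one far below the tg values, and by summed reads the gene was 2.06-fold higher (1.25 to 3.41) against a deposited log2 ratio of 1.65. Slc50a1, a member of the SWEET sugar carriers, had 14 and 17 reads (2.30-fold, 1.07 to 5.03). Slc16a6 held 89 WT and 93 tg reads (1.98-fold, 1.46 to 2.67), the narrowest interval of the role group. Its values are the same as those of Arsg, a gene that overlaps it, so that they cannot be assigned to 1 of these genes. Slc5a6, which encodes the carrier of biotin and pantothenate, had 25 and 21 reads (ratio 1.59, 0.846 to 2.96) and shares its values with 0610007C21Rik. Slc45a4, with 4 probes, had 3, 4, 6 and 26 reads in WT and 5, 6, 7 and 9 in tg. The deposited log2 ratio was 0.92, and the ratio of summed reads was 1.31 (0.771 to 2.19). Slc2a8 (18 and 7 reads) and Slc16a13 (16 and 3 reads) had ratios of 0.736 and 0.355, and both intervals include 1 (0.260 to 1.85 and 0.0662 to 1.24).

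**Figure D2:**
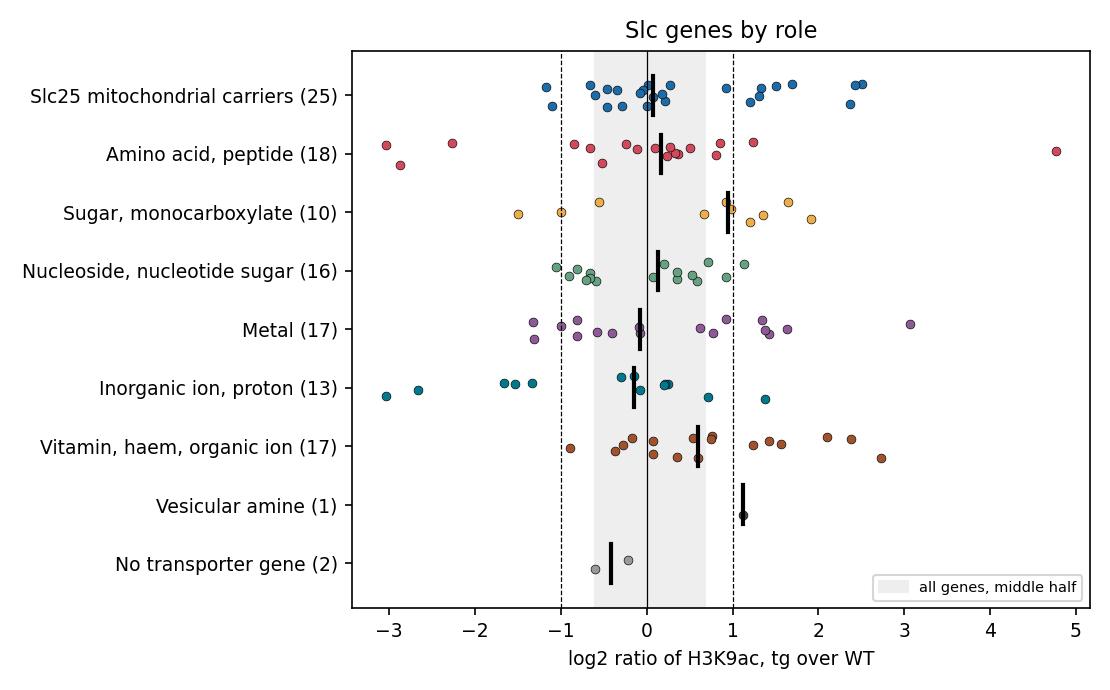
Log2 ratio of H3K9ac, tg over WT (horizontal axis), for each Slc gene (points, spread vertically for legibility) by role, with the number of genes in brackets. Thick bars are medians, the grey band is the interquartile range of all 9615 genes and dashed lines mark a 2-fold difference; the sugar and monocarboxylate genes have a median of 0.95 and the inorganic ion genes one of -0.15.

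Genes linked to iron and haem, not all of them carriers of either, were chosen as a list across families. Of its 15 genes, 8 have a row under an Slc symbol. Among these 8, 2 (25%) passed 2-fold on the higher side and 0 on the lower, against 16.5% and 15.8% of all genes. The median log2 ratio of the 8 was 0.48. Both higher genes, Slc11a2 and Slc25a38, lay below the median level of all genes. Of the table's genes below that level, 22.8% were higher and 20.9% lower. The 2 members of the list at or above that level were within 2-fold. Slc11a2 encodes DMT1, the iron carrier of endosomes and of the gut. Its 2 probes (gene at chromosome 15, 100387898 to 100425072, ENSMUSG00000023030) held 1 and 9 reads in WT and 8 and 22 in tg, and the summed level was 5.67-fold higher (2.70 to 13). Slc25a38, the mitochondrial glycine carrier gene of haem synthesis (chromosome 9, 120110374 to 120124504), had probes with 1 and 12 reads in WT and 6 and 15 in tg, 3.06-fold higher (1.46 to 6.64). In both genes the lowest and the highest probe value of tg were above those of WT after scaling. The erythroid markers were higher in the same library, and their part in this difference was not tested.

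For the other members of the iron and haem list the counting interval included 1. Slc25a28, which encodes mitoferrin 2, an iron carrier of mitochondria, had 31 and 19 reads (ratio 1.16, 0.619 to 2.12). The related carriers Slc25a39 and Slc25a40, which bring glutathione into mitochondria, had 27 and 15 reads (1.05, 0.520 to 2.05) and 5 and 5 reads (1.89, 0.435 to 8.22). Slc48a1, the gene of a haem exporter of lysosomes and phagosomes, had 33 and 24 reads (1.38, 0.778 to 2.40). Lower in number were Slc46a1, the gene of the proton-coupled folate carrier, with 14 and 4 reads (0.540, 0.130 to 1.72), and the zinc and iron carrier gene Slc39a14, with 10 and 3 (0.567, 0.100 to 2.20). The 7 other genes of the list, among them Slc25a37 and Slc40a1, have no row under an Slc symbol and were not counted here. Of these, Slc49a1 is the gene Flvcr1, which has a row under an older symbol (30 WT and 6 tg reads). It is given below with the genes outside the Slc symbols.

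Of 20 iron handling genes outside the Slc symbols that have a row, 6 passed 2-fold on the higher side and 2 on the lower, against 16.5% and 15.8% of all genes, with a median log2 ratio of 0.34. Tfr2, a transferrin receptor gene, had 7 and 19 reads (5.13-fold, 2.07 to 14.5). Glrx5, a gene of iron-sulfur cluster assembly, had 17 and 41 reads (4.56-fold, 2.54 to 8.56), and Abcb10, a mitochondrial transporter gene of red cell precursors, 18 and 37 (3.89-fold, 2.16 to 7.25). On the lower side, the haem exporter gene Flvcr1, listed in the table under its older symbol Mfsd7b, had 30 and 6 reads (2.64-fold lower, 1.08 to 7.77) and Hfe 25 and 6 (2.20-fold lower, 0.882 to 6.57).

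**Figure D3:**
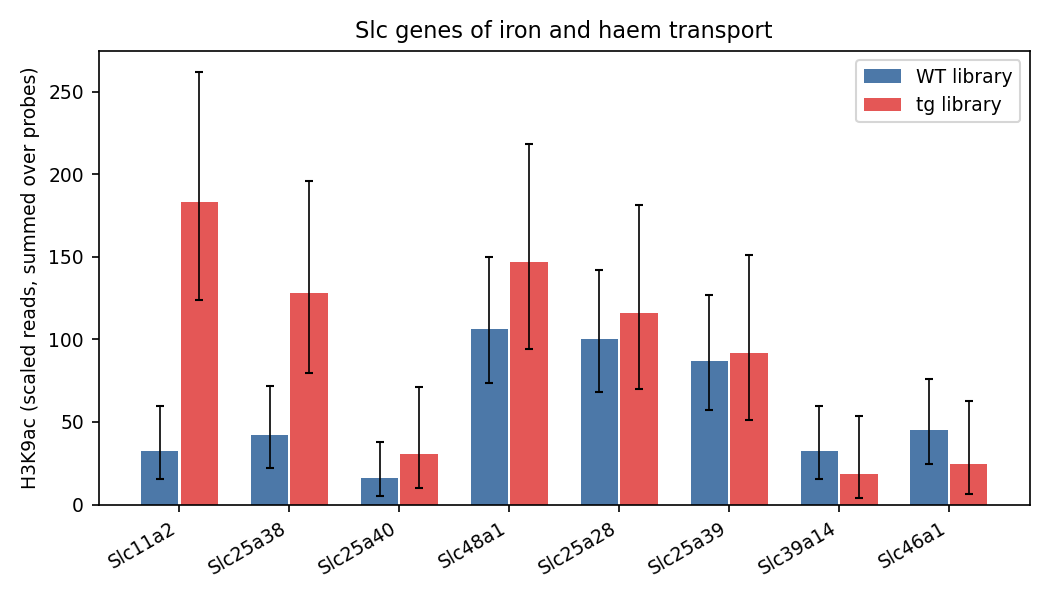
H3K9ac at the 8 Slc genes linked to iron and haem in the WT and the tg library, in scaled reads summed over probes (bars), with exact 95% Poisson intervals that cover counting error only. The intervals of the 2 libraries do not overlap for Slc11a2 (10 and 30 reads) and Slc25a38 (13 and 21 reads) and overlap for the other 6.

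Among the other metal transporter genes the magnesium carriers were higher and single zinc carriers lower. Of 17 metal transporter genes, Slc11a2 included, 5 (29.4%) were at least 2-fold higher and 2 (11.8%) lower. The shares over all genes were 16.5% and 15.8%. The median log2 ratio of the group was -0.08, and all 5 of the higher ones lay below the median level of all genes. Summed reads gave 4 higher and 3 lower. The magnesium carrier genes Slc41a1 (8 and 11 reads) and Slc41a3 (25 and 29 reads) had ratios of 2.60 (0.953 to 7.45) and 2.19 (1.24 to 3.91). The copper importer gene Slc31a1 had probes with 2 and 38 reads in WT and 9 and 17 in tg. Its deposited log2 ratio was 1.42, whereas the ratio of summed reads was 1.23 (0.720 to 2.06).

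The zinc carriers did not move in 1 direction. Of 5 Slc30 genes 0 were higher and 1 was lower, and of 8 Slc39 genes 1 was higher and 1 lower. Slc30a5, which loads zinc into the secretory pathway, had 75 WT and 16 tg reads, 2.48-fold lower (1.43 to 4.56; chromosome 13, 100802649 to 100833427). Its partner in that transport, Slc30a6, had 20 and 18 reads (ratio 1.70, 0.849 to 3.39), and Slc30a7 had 9 and 9 (1.89, 0.665 to 5.38). Slc30a1, the zinc exporter of the cell surface (values shared with 1700034H15Rik), had 16 and 13 reads (1.54, 0.680 to 3.41), and Slc30a9 40 and 16 (0.757, 0.396 to 1.38). Slc39a10, a zinc importer gene, had probes with 21 and 95 reads in WT and 10 and 14 in tg, and its summed reads were 2.56-fold lower (1.64 to 4.15). Slc39a6, which forms a complex with SLC39A10, had 19 and 4 reads (2.51-fold lower, 0.835 to 10.2). Slc39a11 was the higher member, with 13 and 22 reads (3.20-fold, 1.54 to 6.92). Its span overlaps Sstr2 and Cog1. Slc39a1, Slc39a4, Slc39a7 and Slc39a9 lay within 2-fold, and Slc39a7, a zinc channel gene of the endoplasmic reticulum, was near equality (20 and 10 reads; 0.946, 0.395 to 2.12) and shares its values with Gm20427.

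Mitochondrial carriers of the Slc25 family had a median log2 ratio of 0.07. Of 25 members, 8 (32%) were at least 2-fold higher and 2 (8%) were lower, against 16.5% and 15.8% of all genes. Summed reads gave 6 and 2. At or above the median level 2 of 12 were higher and 1 was lower, against 10.2% and 10.8% of all genes there. Slc25a25 and Slc25a24 encode calcium-regulated carriers that exchange ATP-magnesium for phosphate. Slc25a25 had 12 WT and 34 tg reads, 5.36-fold higher (2.71 to 11.4), at a single probe (gene at chromosome 2, 32414487 to 32451445); its span overlaps Naif1. Slc25a24 had probes with 2 and 24 reads in WT and 7 and 20 in tg. Its deposited log2 ratio was 1.69, and its summed reads were 1.96-fold higher (1.10 to 3.50), under 2-fold. The coenzyme A carrier gene Slc25a42 had 3 and 9 reads (5.67-fold, 1.42 to 32.6).

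The dicarboxylate carrier gene Slc25a10, with values shared with Gm11788, had 4 and 6 reads (2.84, 0.673 to 13.7) and the pyrimidine nucleotide carrier gene Slc25a33 9 and 12 (2.52, 0.975 to 6.78). Slc25a11, the gene of the oxoglutarate carrier of the malate-aspartate shuttle, had 3, 9 and 33 reads over its probes in WT and 8, 10 and 20 in tg. The deposited log2 ratio was 1.20, but the summed reads were 1.60-fold higher (1.01 to 2.52), under 2-fold. On the other side, Slc25a45 had 57 and 14 reads, 2.15-fold lower (1.18 to 4.18), and the S-adenosylmethionine carrier gene Slc25a26 17 and 4 (2.25-fold lower, 0.733 to 9.18).

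The phosphate carrier gene Slc25a3 had 53 WT and 22 tg reads (ratio 0.785, 0.455 to 1.31), the X-linked adenine nucleotide exchanger gene Slc25a5 27 and 9 (0.630, 0.261 to 1.38) and the citrate carrier gene Slc25a1 41 and 21 (0.969, 0.544 to 1.68). Each interval includes 1. Slc25a12, which encodes the aspartate and glutamate carrier of the same shuttle as Slc25a11, had 29 and 17 reads (1.11, 0.572 to 2.09), and the glutamate carrier gene Slc25a22 12 and 6 (0.946, 0.291 to 2.72). The folate carrier gene Slc25a32 had 15 and 8 reads (1.01, 0.370 to 2.53). The remaining carriers, Slc25a16, Slc25a17, Slc25a29, Slc25a36, Slc25a44 and Slc25a46, had log2 ratios from -0.60 (Slc25a44) to 0.27 (Slc25a29).

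Amino acid and peptide transporter genes held the highest deposited log2 ratio of all members (Slc1a3) and, tied with Slc26a11, the lowest (Slc15a3). These extremes rest on 0 reads, in WT for Slc1a3 and in tg for Slc15a3 and Slc26a11, entered as 0.9 of a read. Their size depends on that entry. Slc38a1, which had reads in both libraries, had a deposited log2 ratio of -2.87. Of 18 members, 2 (11.1%) were at least 2-fold higher and 3 (16.7%) lower, against 16.5% and 15.8% of all genes. The median log2 ratio of the group was 0.17, and summed reads gave the same counts. Slc15a3 and Slc15a4 encode the histidine and peptide carriers of endosomes and lysosomes in leukocytes, the second of which is needed for signalling by endosomal toll-like receptors. Slc15a4 (chromosome 5, 127595664 to 127632897) had probes with 16 and 62 reads in WT and 3 and 4 in tg, 5.89-fold lower (2.73 to 15.1). Slc15a3 (chromosome 19, 10839727 to 10859362) had 14 WT and 0 tg reads, at least 2.47-fold lower against a floor of 3 reads. Both members of this subfamily were thus past 2-fold on the lower side. The neutrophil and monocyte list also had lower levels in tg, and the part of such cells in these differences was not tested.

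Of the 5 Slc38 genes, a family of sodium-coupled neutral amino acid transporters, 0 passed 2-fold on the higher side and 1 on the lower. Slc38a1, which encodes the glutamine carrier SNAT1, had probes with 40 and 77 reads in WT and 2 and 8 in tg, 6.19-fold lower (3.25 to 13.2; chromosome 15, 96571418 to 96642913). Both tg probes lay far below both WT probes, also after scaling. Its neighbour in function Slc38a2, the gene of the stress-induced carrier SNAT2, had 75 and 22 reads (1.8-fold lower, 1.11 to 3.05). Slc38a6 (38 and 14 reads, values shared with Trmt5) had a ratio of 0.697 (0.349 to 1.32). Slc38a10, with values shared with Gm11769, and Slc38a9, the gene of a lysosomal arginine sensor, had 33 and 22 reads (1.26, 0.700 to 2.23) and 26 and 24 (1.75, 0.960 to 3.16).

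The glutamate carrier gene Slc1a3, which encodes EAAT1, had 0 WT and 13 tg reads (chromosome 15, 8634124 to 8710764). Against a floor of 3 reads it was at least 8.20-fold higher. Slc1a5, the gene of the glutamine carrier ASCT2, had 35 and 28 reads (1.51, 0.887 to 2.56). Slc6a9, the gene of the glycine carrier GlyT1 that supplies red cell precursors, had 4 and 5 reads (2.36, 0.509 to 11.9). This count cannot show a difference of that size, and the values are shared with Gm17114. Slc6a6, the taurine carrier gene, had 29 and 13 reads (0.848, 0.405 to 1.68).

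Slc3a2 encodes the heavy chain 4F2hc, which brings the light chains to the surface. It had probes with 34 and 34 reads in WT and 16 and 28 in tg, a ratio of 1.22 (0.818 to 1.81). The light chain genes Slc7a5 (LAT1; 8 and 6 reads) and Slc7a6 (22 and 14 reads) had ratios of 1.42 (0.406 to 4.66) and 1.20 (0.570 to 2.46). The arginine and lysine carrier gene Slc7a1 had 53 and 26 reads (0.928, 0.557 to 1.51). In the Slc43 family, Slc43a3, which encodes a purine nucleobase carrier, had 31 and 30 reads (1.83-fold, 1.07 to 3.13), and Slc43a2 58 and 30 (0.978, 0.608 to 1.55). The lysosomal proton and amino acid carrier gene Slc36a1 had 27 and 9 reads (0.630, 0.261 to 1.38).

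Inorganic ion, proton and bicarbonate transporter genes had 1 of 13 members (7.69%) at least 2-fold higher and 5 (38.5%) lower. The shares over all genes were 16.5% and 15.8%, and the median log2 ratio of the group was -0.15. At or above the median level of all genes 1 of 8 was higher and 1 lower, and the median of these 8 was 0.06. Summed reads gave 0 higher and 5 lower. Slc4a7, the gene of a sodium bicarbonate carrier that alkalinises the cytosol, had 43 WT and 9 tg reads, 2.53-fold lower (1.21 to 5.89; chromosome 14, 14703025 to 14799943). Slc26a11 had 14 and 0 reads, at least 2.47-fold lower. It shares these values with Sgsh, a neighbouring gene of a lysosomal sulfatase, so that 1 probe stands for both. Like Slc26a11, the other 3 lower members were weakly covered, below the median level of all genes. The sodium, calcium and potassium exchanger gene Slc24a3 had 12 and 1 reads (6.34-fold lower, 0.939 to 271), the endosomal sodium and proton exchanger gene Slc9a9 12 and 2 (3.17-fold lower, 0.706 to 29.2) and the potassium and chloride carrier gene Slc12a7 19 and 4 (2.51-fold lower, 0.835 to 10.2). All 3 intervals include 1.

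Slc9a8, the gene of a Golgi sodium and proton exchanger, was the higher member by its deposited log2 ratio of 1.37. Its probes held 4 and 44 reads in WT and 11 and 30 in tg, and by summed reads the ratio was 1.62 (1.04 to 2.50), under 2-fold. The phosphate carrier genes Slc20a1 and Slc20a2, whose products also serve as retrovirus receptors, had 32 and 16 reads (0.946, 0.485 to 1.77) and 42 and 20 (0.901, 0.501 to 1.57), the latter shared with AI316807. The chloride and bicarbonate exchanger gene Slc4a2 had 81 and 35 reads (0.817, 0.533 to 1.23). Slc26a1, which overlaps Idua, had 31 and 19 reads (1.16, 0.619 to 2.12).

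Vitamin, haem, choline, lipid and organic ion transporter genes had 6 of 17 members (35.3%) at least 2-fold higher and 0 lower. The shares over all genes were 16.5% and 15.8%, and the median log2 ratio of the group was 0.60. Most were weakly covered: 3 of the 17 reached the median level of all genes, of which 1 was higher and 0 lower, and the median of these 3 was -0.17. Slc44a1, the choline carrier gene, had 8 WT and 22 tg reads, 5.20-fold higher (2.23 to 13.5; chromosome 4, 53440413 to 53622478). Slc22a23, an organic ion carrier gene with no assigned substrate, had probes with 2 and 7 reads in WT and 2 and 36 in tg. Nearly all tg reads lay on 1 probe, and the summed level was 7.99-fold higher (3.80 to 18.8) against a deposited log2 ratio of 2.10. Slc22a4, the ergothioneine carrier gene, had 9 and 14 reads (2.94-fold, 1.19 to 7.71), whereas its close relative Slc22a5, the carnitine carrier gene, had 22 and 9 (0.774, 0.314 to 1.75). Slc47a2, of the multidrug extrusion carriers, had 2 and 7 reads (6.62, 1.26 to 65.3) and the bile acid and fatty acid enzyme gene Slc27a5 4 and 5 (2.36, 0.509 to 11.9).

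Slc14a1, the gene of the urea transporter that carries the Kidd blood group antigen, depended on how its probes were combined. They held 0 and 45 reads in WT and 9 and 11 in tg. The deposited log2 ratio of 1.56 gives both probes the same weight, while the summed reads gave a ratio of 0.841 (0.470 to 1.45), on the other side of equality. Such a change of side was seen in 3 of the 35 members with 2 to 4 probes, against 10.9% of all such genes. The others were Slc43a2 and Slc25a12, both near equality.

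Carrier genes of B vitamins and vitamin C lay within 2-fold. The thiamine carrier gene Slc19a2 had 23 and 21 reads (1.73, 0.909 to 3.26) and the folate carrier gene Slc19a1 15 and 12 (1.51, 0.647 to 3.46). The riboflavin carrier gene Slc52a2 had 9 and 5 reads (1.05, 0.277 to 3.49), and the vitamin C carrier gene Slc23a2 15 and 9 (1.13, 0.438 to 2.77). None of these intervals leaves out 1. Slc27a4, a fatty acid carrier gene, had 10 and 8 reads, Slc46a3 16 and 7, and Slc10a7 77 and 32, and the ratio of the last was 0.786 (0.504 to 1.20). For Slc22a14, with 6 probes, no reads were recovered; its deposited log2 levels were 5.39 in WT and 5.46 in tg, a log2 ratio of 0.07. Its span in the table (chromosome 9, 119169455 to 119365553) reaches beyond the RefSeq gene, which ends at 119190430, and overlaps Oxsr1, Myd88 and Acaa1a, and which of these genes its probes lie at is not given.

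Nucleoside, nucleotide sugar and acetyl-CoA transporter genes were the group with the smallest range of log2 ratios among those with 10 or more members. Of 16 members 1 (6.25%) was at least 2-fold higher and 1 (6.25%) lower, against 16.5% and 15.8% of all genes. Log2 ratios in the group ran from -1.06 to 1.14 with a median of 0.14. Most of them, the Slc35 genes, feed the Golgi and endoplasmic reticulum with activated sugars for glycosylation. Slc35e2 had 71 WT and 18 tg reads, 2.09-fold lower (1.23 to 3.72), the only member of this group whose interval left out 1. Slc35b4 had 14 and 15 reads (2.03, 0.912 to 4.53). The sialic acid donor carrier gene Slc35a1 had 15 and 13 reads (1.64, 0.718 to 3.69), the fucose donor carrier gene Slc35c1 34 and 11 (0.612, 0.280 to 1.24) and the sulfate donor carrier gene Slc35b2 33 and 11 (0.630, 0.287 to 1.28). Slc35d1, which carries UDP-glucuronic acid, was among those nearest to equality at good coverage, with 65 and 44 reads (1.28, 0.853 to 1.91). Slc29a1, the gene of the nucleoside carrier ENT1 of the red cell and other surfaces, had 23 and 14 reads (1.15, 0.548 to 2.33) and the lysosomal nucleoside carrier gene Slc29a3 27 and 9 (0.630, 0.261 to 1.38). The acetyl-CoA carrier gene Slc33a1 had 32 and 9 reads (0.532, 0.223 to 1.14). The remaining members Slc35a3, Slc35a5, Slc35b1, Slc35b3, Slc35c2, Slc35e1 and Slc35f5 had log2 ratios from -0.82 (Slc35e1) to 0.92 (Slc35f5).

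Slc18a1, a carrier gene that loads amines into vesicles, was alone in its role group, with 11 and 14 reads (2.41-fold, 1.02 to 5.86), and its span overlaps Atp6v1b2. The pattern matches that encode no transporter lay within 2-fold: Slc7a6os had 22 and 10 reads (0.860, 0.363 to 1.89) and Slc4a1ap, which shares its values with Supt7l, 23 and 8 (0.658, 0.254 to 1.52).

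**Figure D4:**
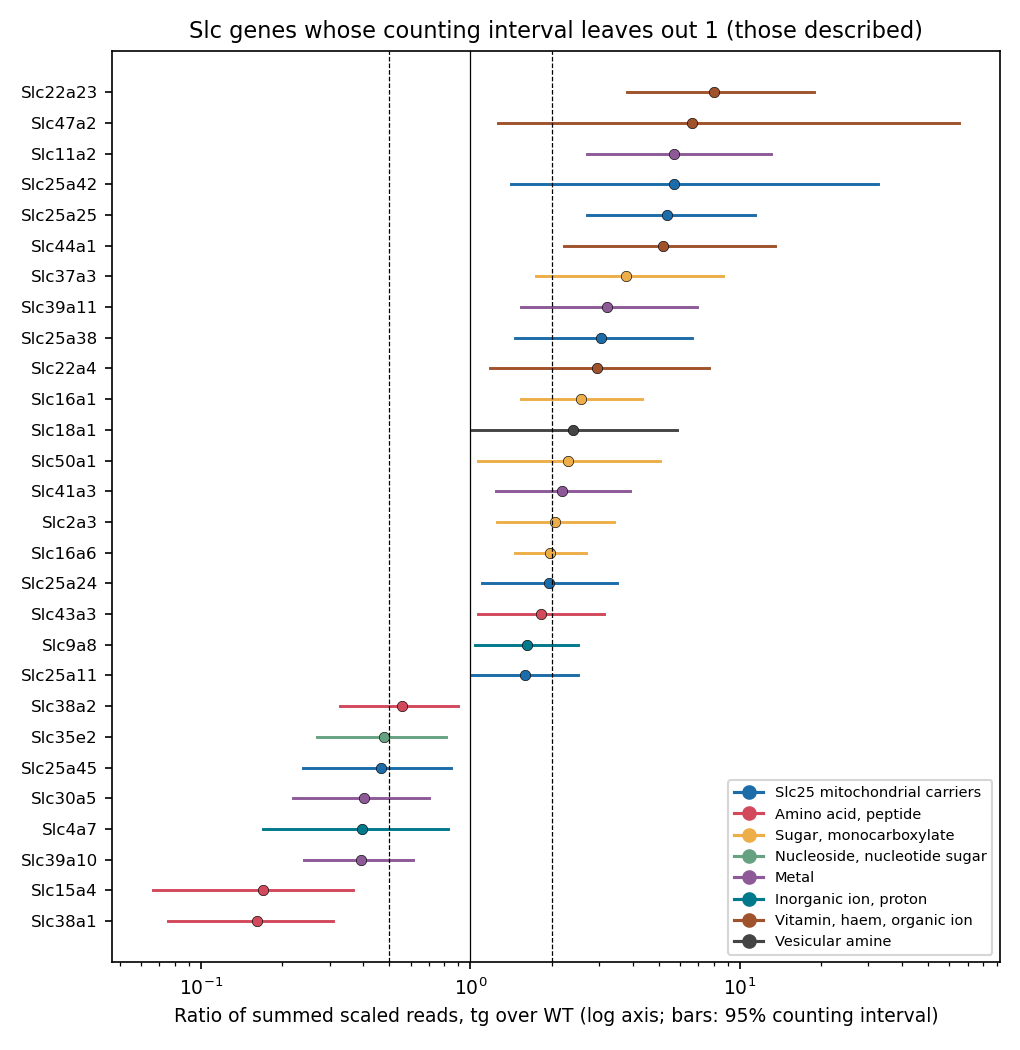
Ratio of summed scaled reads, tg over WT (log axis), for Slc genes described in the text whose 95% counting interval leaves out 1 and that had reads in both libraries. Points are ratios, bars are exact binomial intervals that cover counting error only, colours are roles and dashed lines mark a 2-fold difference; Slc38a1 (0.162) and Slc15a4 (0.170) lie lowest and Slc22a23 (7.99) highest.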

How the data were processed

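H3K9ac was profiled in 1 library per genotype. The authors' deposited table holds log2 values for both H3K9ac libraries, with a mean and a standard deviation across the probes of each gene (per the file headers), matched to the samples by library code, and the number of probes (other columns were gene annotation). The submitters' processing notes name CASAVA 1.8.2, BWA, SAMtools and FastQC, and mm10 and GRCm38 as builds. The placement of probes and the program behind it are not given in these sources. No column matched the rabbit IgG libraries, which were not analysed here, so that no background level stands beside the values. Per the labels' protocols, an erythrocyte lysis preceded fixation.

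The linear values of all 7423 genes with 1 probe were whole multiples of 1 step per library (within 0.01), with 0 reads entered as 0.9 of a read. Each such gene has at least 9 reads over both libraries. Reads per probe were recovered for genes with 1 to 4 probes where exactly 1 set of whole numbers matched mean and standard deviation (9492 genes; the method was tested on simulated data). Recovered probe reads are sorted, and which WT probe matches which tg probe is not known. Ratios are tg over WT, from summed reads divided by the total behind each library's scaling. Their 95% intervals are exact (Clopper-Pearson, conditional on the sum of both counts) and cover counting error only, since reads that carry no molecular identifier need not be separate molecules. Deposited log2 means weigh probes alike, summed reads weigh them by reads. A gene with 0 reads in a library was set against a floor of 3 reads there. Of the members, 13 share their values with a neighbour within 100000 bp and 27 overlap another gene of the table. All 119 were found at their position in RefSeq (GRCm38.p6). Older symbols were matched for 5 genes of the other lists. Levels were not compared between genes, since probe widths are not given.

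Named were members of the iron and haem list, the pattern matches that are no transporter, per role up to 5 members furthest past 2-fold on each side and the 2 nearest to equality at or above the median level, members with 0 reads in 1 library, members with 4 or more probes and, from each list of other transporters, up to 3 genes furthest past 2-fold on each side. Other members were named after their values were seen. Single genes are counted in the groups but not reported here by name. The members and lists were chosen with earlier results of these data known. Python 3.11.15, scipy 1.17.1 and pandas 2.3.3 were used.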

Additional observations from a re-analysis of the deposited data

How the results depend on the processing

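The counts of 28 higher and 14 lower Slc genes moved with coverage, probe number and the fold rule. Restricting to genes at or above the median level gave 8 and 5 (of 63). Genes with 1 probe gave 14 and 11 (of 83). Genes with 2 or more probes, an alternative chosen after seeing the data, gave 14 and 3 (of 36) with a median log2 ratio of 0.73. A 1.5-fold rule gave 44 and 30, and a 3-fold rule 12 and 6. Summed reads, 0.5 added reads, centring on the median of all genes, counting identical values once, leaving out genes that share values with a neighbour, or including the 4 genes left out kept both counts within 1.5 times. The log2 ratio of Slc14a1 turned from 1.56 to -0.25 with summed reads and to -0.23 with 0.5 added reads, since these weigh probes by their reads; no other member past 2-fold changed side under the alternatives run. With 1 library per genotype no replicate could be left out. No paired analysis was possible because each group has 1 library. Low read counts also limit these comparisons: 17 members had under 10 reads in WT and 38 in tg.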

Other observations

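Transporter genes outside the Slc symbols were described in the same way, as values of these 2 libraries. Of 18 genes of the ABC family, 8 passed 2-fold on the higher side in tg and 3 on the lower (median log2 ratio 0.64), against 16.5% and 15.8% of all genes. Most of these genes encode transporters that use ATP to move lipids, drugs and metabolites. Abce1, among the 3 lower, and Abcf1, Abcf2 and Abcf3, which lay within 2-fold, belong to the family but encode no transporter. Abcg2, an exporter gene of stem cells and red cell precursors, had 4 WT and 24 tg reads (11.3-fold, 3.90 to 45.0), and the phospholipid exporter gene Abcb4 14 and 45 (6.08-fold, 3.28 to 12.0). Abca17 had 27 and 4 reads (3.57-fold lower, 1.24 to 14.0) and Abce1, a gene of ribosome recycling, 44 and 11 (2.11-fold lower, 1.07 to 4.54).

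Of 39 P-type and V-type ATPase genes 5 were higher and 8 lower (median 0.01), shares of 12.8% and 20.5% against 16.5% and 15.8% of all genes. The sodium pump subunit gene Atp1b2 had 3 and 23 reads (14.5, 4.38 to 75.4) and the copper pump gene Atp7b 8 and 33 (7.80-fold, 3.53 to 19.6). Atp6ap2, an accessory gene of the proton pump, was higher by its log2 ratio of 1.78, but its summed reads, 18 and 15, gave a ratio of 1.58 (0.739 to 3.31). The proton pump gene Atp6v1h had 26 and 2 reads (6.87-fold lower, 1.72 to 59.8). The lipid flippase genes Atp8b2 and Atp10a had 13 and 1 reads (6.87-fold lower, 1.03 to 292) and 24 and 2 (6.34-fold lower, 1.58 to 55.4).

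Among 27 other carrier genes 6 were higher and 4 lower (median 0.28), shares of 22.2% and 14.8%, near those of all genes. Aqp1, the water channel gene of the red cell membrane, had 4 and 47 reads (22.2-fold, 8.13 to 84.9), Mfsd2b, the sphingosine 1-phosphate exporter gene of red cells and platelets, 4 and 42 (19.9-fold, 7.21 to 76.3), and Mtch1 0 and 9 (at least 5.67-fold). The mitochondrial carrier gene Ucp2 had 124 and 31 reads (2.11-fold lower, 1.42 to 3.24) and Mfsd6 32 and 6 (2.82-fold lower, 1.16 to 8.25). Erythroid markers had higher and neutrophil and monocyte markers lower levels in tg, and their part in these values was not tested.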
